A study of Mus musculus with 8 samples.

Results

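Heart classical monocytes are the recruited, inflammatory kind of monocyte found among the leukocytes of the heart, and 121 of the 11130 cell barcodes of the series met their rule. The rule asked for at least 200 genes, at most 10% mitochondrial UMIs (unique molecular identifiers, each standing for a captured transcript) and at least 10 hashtag UMIs, of which at least 80% carried the heart hashtag. Among those barcodes it kept cells with at least 2 UMIs of Ly6c2, at least 1 UMI over Ccr2, Chil3 and F13a1, at most 2 UMIs over the C1q genes of macrophages and at most 1 over Treml4, Ace and Cd300e of nonclassical monocytes. Any UMI of Cd209a, Flt3, Cd79a, Gzma or Ncr1 excluded a barcode, as did 10 or more UMIs of S100a8 and S100a9. The cells were thus chosen by measured transcripts, and the levels of these genes describe the choice and are not findings.

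Classical monocytes are made in the bone marrow, enter the blood through the chemokine receptor CCR2 and carry the surface protein Ly6C at a high level in mice. They are drawn into inflamed or injured tissue, the heart included, where they release cytokines and can turn into macrophages or antigen-presenting cells. Nonclassical monocytes, with little Ly6C, patrol the vessel wall and depend on the nuclear receptor Nr4a1. Immediate early genes such as Fos and Jun encode transcription factors that cells make within minutes of a stimulus, and NF-kB drives many inflammatory genes together with the inhibitors that switch it off again.

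The study asked what marrow from donors with a brain injury does in a new host. CD45+ CD11b+ cells (leukocytes with a myeloid surface integrin) were sorted from heart and blood of 4 recipient mice of the strain Mx1Cre:c-Mybfl/fl, whose own marrow had been depleted. The mice received bone marrow of stroke donors (2 mice, stroke 1 and stroke 2) or of control donors (2 mice, control 1 and control 2), so that all groups share the host genotype and the transplantation. Mx1Cre is an inducible Cre active in blood-forming and some other cells, and the age and sex of the mice, the time after transplantation and the host cells that remained are not given in the sources used here. A hashtag antibody for each organ marked its cells before both organs of an animal went into 1 library, so organ is compared within libraries and donor group between them. Each mouse gave 1 library, and p-values rest on 2 mice per group for stroke against control and on 4 mice, each with both organs, for heart against blood. The barcode suffix was tied to a mouse through the sample number in the labels, which no file states and which every comparison of stroke with control rests on.

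The 4 libraries held 10067873 to 16513840 gene UMIs, and 5324 barcodes passed the filters as heart and 4810 as blood. The heart classical monocytes numbered 22 in stroke 1, 44 in stroke 2, 15 in control 1 and 40 in control 2. Their UMIs summed to 134733 and 267361 with stroke marrow, against 97715 and 218293 with control marrow. A median cell held 5703.5 and 5985 UMIs with stroke marrow, against 6266 and 5676.5 with control marrow, so depth per cell was close in all 4 mice and the number of cells set the depth of each sum. The same rule with the blood hashtag kept 582 blood classical monocytes, 253, 33, 133 and 163 in stroke 1, stroke 2, control 1 and control 2. Of 28 cell barcodes whose 16 bases occur in more than 1 library, 1 was a heart classical monocyte.

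Control 1 stood apart from the other mice before any comparison. Its 15 heart classical monocytes held 216 UMIs of the transgene transcript kgfp, which was at 0 in the other 3 mice, and 57 UMIs of a second one, agfp, against 1258 and 2317 in the stroke mice and 1982 in control 2. The sources used here do not say what these transgenes are, and both were left out of every test. Xist, the transcript of the inactive X chromosome, was at 0 UMIs there, against 39 and 122 in the stroke mice and 77 in control 2, and the Y-linked Ddx3y had 25 UMIs in its blood monocytes. The donor groups were therefore not balanced for what set this library apart, and results are given with and without it where they depend on it.

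Nearly all heart classical monocytes carried a transgene transcript. At least 1 agfp UMI was found in 22 of 22 and 44 of 44 cells with stroke marrow and in 14 of 15 and 35 of 40 with control marrow, and kgfp in 15 of 15 cells of control 1. In heart macrophages, gated by at least 6 C1q UMIs, agfp was found in 16.9% and 12.6% of cells with stroke marrow and in 11.8% and 13.5% with control marrow. In heart B cells the shares were 24.4% and 9.01% with stroke marrow, against 8.91% and 10.4% with control marrow. The gate did not use the transgenes, and by share of cells with agfp the classical monocytes lay above the macrophages and the B cells of their own heart in all 4 mice. Blood classical monocytes carried the transcripts too, so they were not particular to the heart cells. In blood there were 7793, 711, 130 and 5379 agfp UMIs in stroke 1, stroke 2, control 1 and control 2, and 395 kgfp UMIs in control 1.

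Of the 6 genes given as markers of these cells, Ly6c2, Ccr2 and Chil3 are gate genes, and Thbs1, F10 and Nr4a2 were named with earlier results of these data known, so the values of all 6 are described without a test and they are left out of the list counts between groups. Levels are given as CPM, the UMI count of a gene scaled to the same total for every sum after TMM normalization, and the values of the 4 mice are given in the order stroke 1, stroke 2, control 1, control 2. Ly6c2, the Ly6C antigen, was at 1516, 1445, 1158 and 1321 CPM in heart and at 1782, 1620.0, 1530.3 and 1527 CPM in blood. Ccr2, the receptor for monocyte-attracting chemokines, was at 1085, 908, 1024 and 1131 CPM in heart and at 1238, 1246, 2048 and 1072 CPM in blood. Chil3, a secreted chitinase-like protein of myeloid cells, was at 3196, 3466, 402 and 2605 CPM in heart and at 3165, 2725, 1369 and 2895 CPM in blood. Control 1 was the low mouse for Chil3 in both organs, and 24 of its 33 heart Chil3 UMIs came from 1 barcode.

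The other markers were higher in heart in each mouse. Thbs1 encodes thrombospondin-1, a matrix protein that activates TGF-beta, and was at 396, 630.2, 293 and 291 CPM in heart and 28.1, 5.85, 10.8 and 21.7 CPM in blood. F10, coagulation factor X, was at 482, 538, 415 and 375 CPM in heart and 222, 216, 111 and 215 CPM in blood. Nr4a2, an orphan nuclear receptor induced as an immediate early gene, was at 448, 185, 134 and 222 CPM in heart and 2.10, 0, 2.70 and 1.14 CPM in blood. The lowest heart mouse lay above the highest blood mouse for each of these genes. With every cell thinned to 2000 UMIs, Thbs1 was seen in 9 of 21, 23 of 43, 3 of 15 and 13 of 39 heart monocytes and in 8 of 248, 0 of 33, 2 of 131 and 4 of 162 blood monocytes, against 0 of 43, 0 of 106, 0 of 101 and 0 of 130 heart B cells, which should lack it. In control 1 a single barcode held 17 of the 24 Thbs1 UMIs and 1 held 20 of the 34 F10 UMIs. Without the top barcode of each gene F10 was at 171 CPM in control 1, below the highest blood mouse at 222 CPM, whereas Thbs1 was at 85.4 CPM, above its highest blood mouse.

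**Figure D1:**
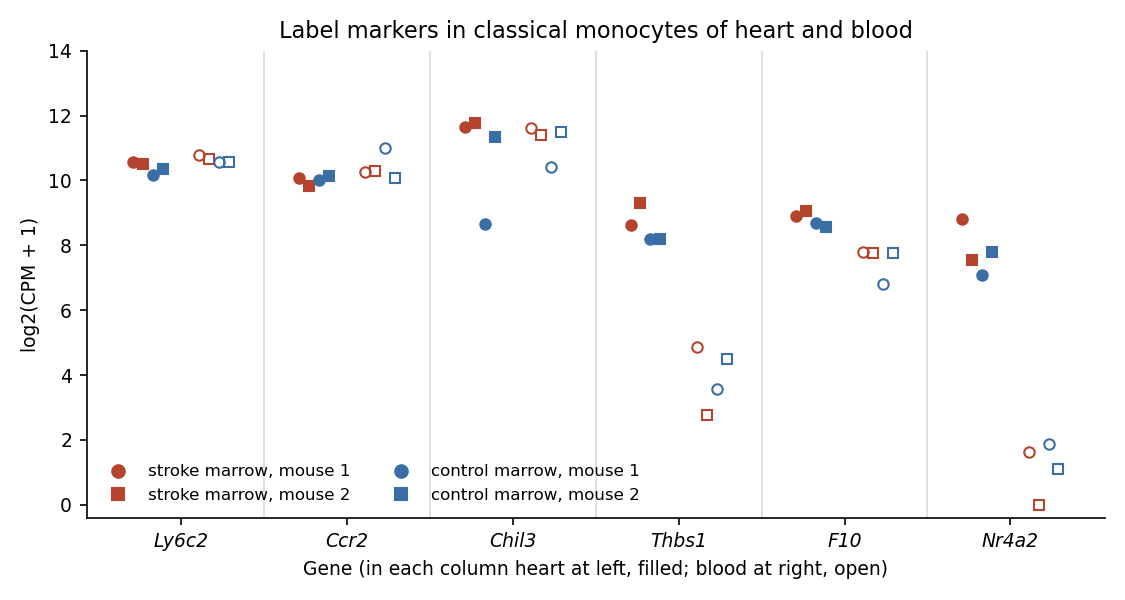
Level of the 6 marker genes in classical monocytes, as log2(CPM + 1), for each of the 4 mice, with heart as filled and blood as open symbols. Thbs1, F10 and Nr4a2 lie higher in heart in every mouse, and Chil3 lies lowest in control 1 in both organs.

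Markers of other cells were mostly low or at 0, in part because the gate removed or capped some of them. Of the 15 nonclassical monocyte genes, gate genes included, 0 were without a UMI. They made up 0.183% to 0.193% of UMIs with stroke marrow and 0.177% to 0.197% with control marrow. In blood classical monocytes they made up 0.137% to 0.154%. The list of 20 classical monocyte genes made up 4.14% and 4.36% of UMIs with stroke marrow, as the lowest and highest mouse, and 3.41% and 4.2% with control marrow, against 3.93% to 4.72% in blood classical monocytes, and includes the gate genes. The 20 macrophage genes made up 0.206% to 0.304% with stroke marrow and 0.274% to 0.353% with control marrow, with Cd163, Gas6, Lyve1 and Timd4 at 0 UMIs. Leaving out the genes that the gate set to 0, 5 of 10 dendritic cell genes were at 0 and 6 of 9 B cell genes. No gate gene is among the cardiomyocyte and vessel lists, where of 12 cardiomyocyte genes 8 were at 0, among them Tnnt2 and Mb, and of 12 endothelial or fibroblast genes 9, among them Cdh5 and Col1a1. These 4 lists stayed at or under 0.0179% of UMIs in each mouse. T and NK cell genes were at 0 with stroke marrow and made up 0.00102% to 0.011% with control marrow, with 4 of the 11 outside the gate at 0. Mast cell or basophil genes (5 of 8 at 0) and erythroid or platelet genes (7 of 10 at 0) stayed at or under 0.00742%. Neutrophil genes made up 0.0304% and 0.0464% with stroke marrow, against 0.0266% and 0.0279% with control marrow, and Ly6g, Cxcr2 and Mmp9 were at 0.

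The edge of the gate was not empty. Among heart barcodes that met all other conditions, 23 had 1 Ly6c2 UMI and 148 had none, against 27 with 2, 19 with 3 and 75 with 4 or more inside the gate. On the macrophage side 30 barcodes were left out with 6 or more C1q UMIs and 1 with 4. On the nonclassical side 18 had 2 and 23 had 3 or more UMIs of Treml4, Ace and Cd300e. Cd209a or Flt3 of dendritic cells left out 41 barcodes. A median cell held 5 and 5.5 Ly6c2 UMIs with stroke marrow, against 5 and 4 with control marrow, so the cut at 2 passed through the lower range of the cells. Scrublet, which scores likely doublets, called 1 of the 121 cells. Its automatic thresholds were uneven, with 9 and 3 calls in the stroke libraries and 38 and 164 in the control libraries.

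The first comparison asked whether marrow of stroke donors changed how many classical monocytes the heart held. They made up 1.33% (95% Clopper-Pearson interval 0.834 to 2.00) of heart barcodes in stroke 1 and 3.24% (2.36 to 4.33) in stroke 2, against 2.04% (1.15 to 3.35) in control 1 and 2.54% (1.82 to 3.44) in control 2. The 2 control mice lay between the 2 stroke mice. The means were 2.28% ± 1.35 with stroke marrow and 2.29% ± 0.351 with control marrow (SD, n = 2 mice each), a difference of −0.00776 percent points (exact two-sided permutation test, p = 1.0, smallest p possible 0.333). The intervals cover counting error only. Cells without CD11b were sorted out and are not in the total.

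In blood the same gate held 18.4% and 2.52% of barcodes with stroke marrow, against 11.7% and 16.5% with control marrow. Classical monocytes took a smaller share of heart than of blood barcodes in 3 of 4 mice, and stroke 2 went the other way. The mean difference between heart and blood was −9.99 percent points (exact two-sided sign-flip test over 4 mice, p = 0.25, smallest p possible 0.125). The share was 2.29% ± 0.807 of heart and 12.3% ± 7.09 of blood barcodes (SD, n = 4 mice).

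**Figure D2:**
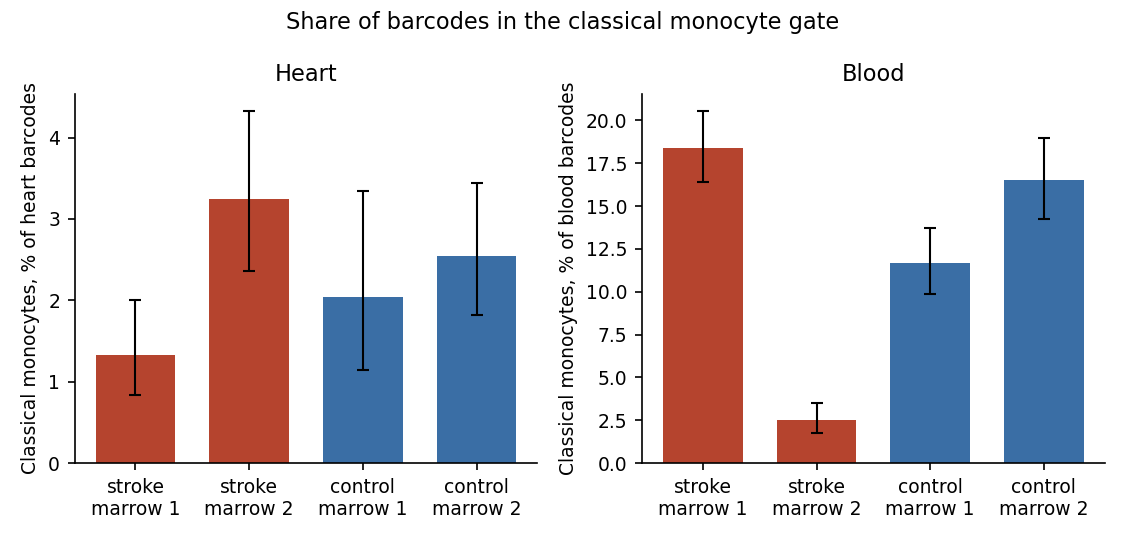
Share of barcodes in the classical monocyte gate, in percent of the heart barcodes (left) and of the blood barcodes (right) of each mouse, with exact 95% Clopper-Pearson intervals as error bars. The heart shares of the control mice, 2.04% and 2.54%, lie between those of the stroke mice, 1.33% and 3.24%.

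The second comparison set heart against blood classical monocytes of the same mice, passed through the same gate. Of 3802 genes tested with edgeR, 308 (8.1%) were higher and 91 (2.39%) lower in heart, and 292 of the 308 and 85 of the 91 moved that way in all 4 mice. The named genes higher in heart included immediate early transcription factors, inhibitors of NF-kB and MAP kinase signalling, chemokines, cytokines, receptors of innate sensing and MHC class II genes. Without control 1 there were 292 genes higher and 74 lower. The heart sums held 97715 to 267361 UMIs and the blood sums 183640 to 1530328.

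All 12 tested genes of the 15 in the immediate early AP-1 list rose in heart, with a median log2 fold change of 2.96, against −0.01 over all genes tested. Fos, a subunit of AP-1 (chromosome 12, 85473890 to 85477273, plus strand, GRCm38), was at 4083, 4004, 3329 and 3656 CPM in heart and 243, 228, 138 and 285 CPM in blood. The mean was 3768 ± 347 CPM in heart and 224 ± 62.0 CPM in blood (SD, n = 4; log2 fold change 4.08, SE 0.11, adjusted p = 1.9e-21). Jun, its partner, was at 922, 849, 1207 and 1019.7 CPM in heart and 15.4, 5.85, 23.0 and 17.2 CPM in blood (log2 fold change 5.88, SE 0.18, adjusted p = 1.1e-20). For both genes every heart value was above every blood value. Atf3, a stress-induced factor of the same protein family, was at 1397 ± 147 CPM in heart and 91.2 ± 14.2 CPM in blood (log2 fold change 3.91, SE 0.14, adjusted p = 1.0e-18). Junb (log2 fold change 2.96), Fosb (5.29) and Jund (2.27) rose as well.

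The rise was seen across cells and not in a few barcodes. After thinning, Fos was found in 18 of 21, 42 of 43, 12 of 15 and 37 of 39 heart monocytes, in the order of mice given above, and in 77 of 248, 14 of 33, 25 of 131 and 61 of 162 blood monocytes. Heart B cells had it in 18 of 43, 48 of 106, 20 of 101 and 44 of 130 cells, so Fos was also seen in other cells of the heart. For Jun the counts were 15 of 21, 24 of 43, 10 of 15 and 23 of 39 heart monocytes, 9 of 248, 0 of 33, 7 of 131 and 5 of 162 blood monocytes and 10 of 43, 18 of 106, 14 of 101 and 20 of 130 heart B cells. A median B cell held 5415 UMIs. The labels do not say how the heart tissue was dissociated.

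Of 9 Nr4a, Egr and Klf factors besides the marker Nr4a2, 7 were tested and 5 rose, with a median of 1.66. Nr4a1, which nonclassical monocytes require, was at 517, 517, 549 and 423 CPM in heart and 36.5, 29.2, 58.1 and 45.8 CPM in blood (log2 fold change 3.50, SE 0.19, adjusted p = 5.6e-15). Egr1, an immediate early zinc-finger factor, was at 662 ± 191 CPM in heart and 9.48 ± 6.61 CPM in blood (log2 fold change 6.06, SE 0.23, adjusted p = 1.5e-18). Nr4a3 had 10, 32, 7 and 10 UMIs in heart and 0, 0, 1 and 0 in blood, too few in blood for a fold change. Klf6 rose by a smaller amount (0.92), and Klf2 and Klf10 did not pass the test.

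Of 20 genes in the list of NF-kB and MAP kinase feedback, 16 were tested and 12 rose, with a median of 2.19. Nfkbia encodes IkB-alpha, which holds NF-kB in the cytoplasm and is itself induced by it. Its level was 2248, 1718, 2390.0 and 2214 CPM in heart and 319.8, 298, 370.4 and 310.2 CPM in blood (log2 fold change 2.74, SE 0.10, adjusted p = 1.2e-18). Dusp1, a phosphatase that turns off MAP kinases, was at 1611, 1815, 1671 and 1432 CPM in heart and 66.6, 105, 37.9 and 41.2 CPM in blood (log2 fold change 4.85, SE 0.16, adjusted p = 4.8e-20). The organs did not overlap for either gene. Nfkbiz, an IkB protein that acts in the nucleus (4.05), the phosphatase gene Dusp2 (5.0) and the NF-kB subunit Rel (1.46) rose, whereas Nfkb1, Nfkb2, Relb and Tnip1 did not pass.

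The chemokine gene Cxcl2 had the largest fitted log2 fold change of the 3802 genes tested, against few UMIs in blood. Its product attracts neutrophils through Cxcr2. Cxcl2 had 120, 343, 172 and 262 UMIs in heart and 9, 0, 2 and 1 in blood. This is 1034, 1441, 2097 and 1384 CPM in heart and 6.31, 0, 2.70 and 1.14 CPM in blood (log2 fold change 8.47, SE 0.24, adjusted p = 1.9e-21). In control 1, 159 of its 172 UMIs lay in 1 barcode, and after thinning Cxcl2 was found in 9 of 21, 19 of 43, 3 of 15 and 14 of 39 heart cells, 4 of 248, 0 of 33, 0 of 131 and 1 of 162 blood cells and 0 of 43, 0 of 106, 0 of 101 and 0 of 130 heart B cells. Ccl3, a ligand of Ccr1, was also higher in all 4 mice (log2 fold change 6.81, SE 0.47, adjusted p = 2.1e-12). It had 9, 50, 34 and 21 UMIs in heart, with 33 of 34 in control 1 and 21 of 50 in stroke 2 in 1 barcode. In blood it had 2, 0, 0 and 2 UMIs, so the size of its fold change depends on the small count that edgeR adds. Cxcl10, an interferon-inducible chemokine, rose (2.62), and Ccl6 and Ccl9 did not pass, so 3 of the 5 tested chemokines of 16 listed rose. The top barcode held 5 of 8, 12 of 32, 11 of 21 and 22 of 53 Cxcl10 UMIs in heart. In blood it held 35 of 74, 1 of 1, 13 of 26 and 8 of 16. Ccrl2, a chemokine-binding receptor that does not signal by itself, rose too (5.27).

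Il1b, the precursor of interleukin-1 beta, was at 559.9, 1496, 1549 and 1088 CPM in heart and 98.2, 46.8, 12.2 and 61.8 CPM in blood (log2 fold change 4.17, SE 0.30, adjusted p = 5.3e-12). Every heart value was above every blood value, and stroke 1 was the lowest heart mouse. Nlrp3, the sensor of the inflammasome that matures interleukin-1 beta, was at 323 ± 65.8 CPM in heart and 54.4 ± 3.90 CPM in blood (log2 fold change 2.49, SE 0.20, adjusted p = 4.7e-11), and Casp4, an inflammatory caspase that senses bacterial lipopolysaccharide, also rose (0.83, but adjusted p = 0.0654 without control 2). Txnip, an inhibitor of thioredoxin that can bind NLRP3, fell in heart, with 103, 67.2, 122 and 111 CPM in heart and 416, 292, 542 and 425 CPM in blood (log2 fold change −2.04, SE 0.18, adjusted p = 5.3e-10). Casp1, Pycard, Gsdmd, Il18, Aim2 and Nlrp1b did not pass, so of the 16 listed genes 10 were tested, 3 rose and 1 fell, with a median of 0.20. Tnf was at 189.5, 231, 561 and 301 CPM in heart and 21.0, 11.7, 17.6 and 12.6 CPM in blood (log2 fold change 4.19, SE 0.27, adjusted p = 4.2e-13). With Tgfb1 (0.51) it made up the 2 tested genes of the 16 in the cytokine and growth factor list besides Thbs1, and the call of Tgfb1 was lost without stroke 2 or control 2 (adjusted p = 0.188 and 0.139).

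To show the sequences next to genes that rose together, 3 promoters are given, each running from 250 bases before to 50 bases after the RefSeq start (GRCm38.p6), 5′ to 3′ on the strand of the gene. They are those of a phosphatase, a chemokine and an inhibitor of NF-kB that were higher in heart in all 4 mice, and capitals mark matches to TGACGTCA, the cAMP response element, and to a loose NF-kB pattern, GGG and CC with any 5 bases between them, on either strand.
Dusp1, chr17:26508423-26508722, minus strand: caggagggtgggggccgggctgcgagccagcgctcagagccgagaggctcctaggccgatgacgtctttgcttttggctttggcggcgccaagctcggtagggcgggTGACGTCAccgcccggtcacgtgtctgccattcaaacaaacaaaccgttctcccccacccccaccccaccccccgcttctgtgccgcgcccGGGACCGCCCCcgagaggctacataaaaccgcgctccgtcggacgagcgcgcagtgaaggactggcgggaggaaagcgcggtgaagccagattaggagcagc
Cxcl2, chr5:90903649-90903948, plus strand: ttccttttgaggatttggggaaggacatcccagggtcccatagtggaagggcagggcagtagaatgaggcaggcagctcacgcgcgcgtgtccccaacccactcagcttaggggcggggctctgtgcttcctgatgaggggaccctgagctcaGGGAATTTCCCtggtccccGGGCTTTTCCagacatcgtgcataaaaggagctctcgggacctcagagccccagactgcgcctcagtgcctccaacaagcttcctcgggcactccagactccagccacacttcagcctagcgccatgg
Nfkbia, chr12:55492598-55492897, minus strand: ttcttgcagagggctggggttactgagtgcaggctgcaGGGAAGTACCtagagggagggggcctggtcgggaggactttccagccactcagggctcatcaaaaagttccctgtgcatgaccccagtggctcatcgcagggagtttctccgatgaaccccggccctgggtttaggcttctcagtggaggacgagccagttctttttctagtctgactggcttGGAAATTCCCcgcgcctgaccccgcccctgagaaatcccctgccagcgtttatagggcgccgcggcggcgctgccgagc

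The Dusp1 window held the cAMP response element 143 bases before the start. The Cxcl2 window held GGGAATTTCC 97 bases and GGGCTTTTCC 78 bases before the start, and the Nfkbia window held GGAAATTCCC 29 bases before it. Windows of Il1b, Junb and Nr4a3, which were also higher in heart, held no match to the marked patterns. RefSeq promoters were found for 250 of the 308 genes higher in heart and for 72 of the 91 lower ones. The cAMP response element was in 4.32% of 347 promoter windows of higher genes, in none of 97 windows of lower genes, in 2.99% of windows of all tested genes and in 1.79% of all 32851 windows. The NF-kB pattern was in 73.2% of windows of higher, 62.9% of lower and 67.2% of all tested genes, and in 50.8% of all windows. The AP-1 pattern TGANTCA was in 6.92%, 9.28%, 5.27% and 7.81% of the same 4 sets. The CArG box, known by name from serum-responsive promoters, was in 1.15%, 1.03%, 1.46% and 1.63%. These are counts of letters and not of bound sites.

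Antigen presentation genes were higher in heart, with most of their UMIs in few cells. Of 12 genes in the MHC class II list, which holds the costimulatory Cd86, 7 were tested and 5 rose, with a median of 1.61. Cd74, the chaperone of MHC class II, was at 2558, 659.6, 4902 and 3138 CPM in heart and 455, 655, 996 and 1398 CPM in blood (log2 fold change 1.61, SE 0.20, adjusted p = 3.9e-07). H2-Ab1 (1.92), H2-Aa (1.59) and H2-Eb1 (2.01) rose in 3 of 4 mice each, and stroke 2 was the exception. Over Cd74, H2-Aa, H2-Ab1 and H2-Eb1 together, the top 3 barcodes held 354 of 499 and 114 of 221 UMIs with stroke marrow. With control marrow they held 443 of 683 and 772 of 1050. At least 20 UMIs were found in 7 of 22 and 6 of 44 cells with stroke marrow and in 6 of 15 and 7 of 40 with control marrow, whereas the median cell held 0 to 2. DESeq2 did not call H2-Ab1, H2-Aa, H2-Eb1 or Cd74 (adjusted p = 0.385, 0.339, 0.273 and 0.0735), and with at least 4 Ly6c2 UMIs per cell the 3 H2 genes did not pass either (adjusted p = 0.105, 0.132 and 0.418). Cd86 rose in all 4 mice (log2 fold change 3.22, SE 0.23, adjusted p = 5.0e-12).

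Some sensing, coagulation and stress genes were called too. Cd14, a co-receptor for bacterial lipopolysaccharide, was at 836, 655, 1049 and 465 CPM in heart and 22.4, 5.85, 20.3 and 28.6 CPM in blood (log2 fold change 5.04, SE 0.22, adjusted p = 2.9e-17). With the lectin receptor genes Clec4d (2.50) and Clec4e (2.78) and with Tlr2 (1.79), it made 4 of 11 tested genes of the pattern recognition list of 22 that rose, while the median of that list was −0.07. In the coagulation list, without the markers Thbs1 and F10 and the gate gene F13a1, 6 of 15 genes were tested and 2 rose, with a median of 0.53. These were Plaur, the urokinase receptor (1.62), and Plek, encoding the protein kinase C substrate pleckstrin (2.46). C5ar1, the receptor of a complement fragment, rose (log2 fold change 3.33, SE 0.34, adjusted p = 1.1e-08). It was the only call among 9 tested complement and Fc receptor genes besides the C1q genes, a share near that over all tested genes. Slc7a11, a cystine importer, was at 198 ± 118 CPM in heart and 2.01 ± 1.92 CPM in blood (log2 fold change 6.0, SE 0.40, adjusted p = 8.1e-13), and with Txnrd1 (1.68), Fth1 (0.83) and Sod2 (0.81) 4 of 7 tested antioxidant genes of 14 rose, with a median of 0.81. Sod2 did not pass without stroke 2 (adjusted p = 0.119).

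**Figure D3:**
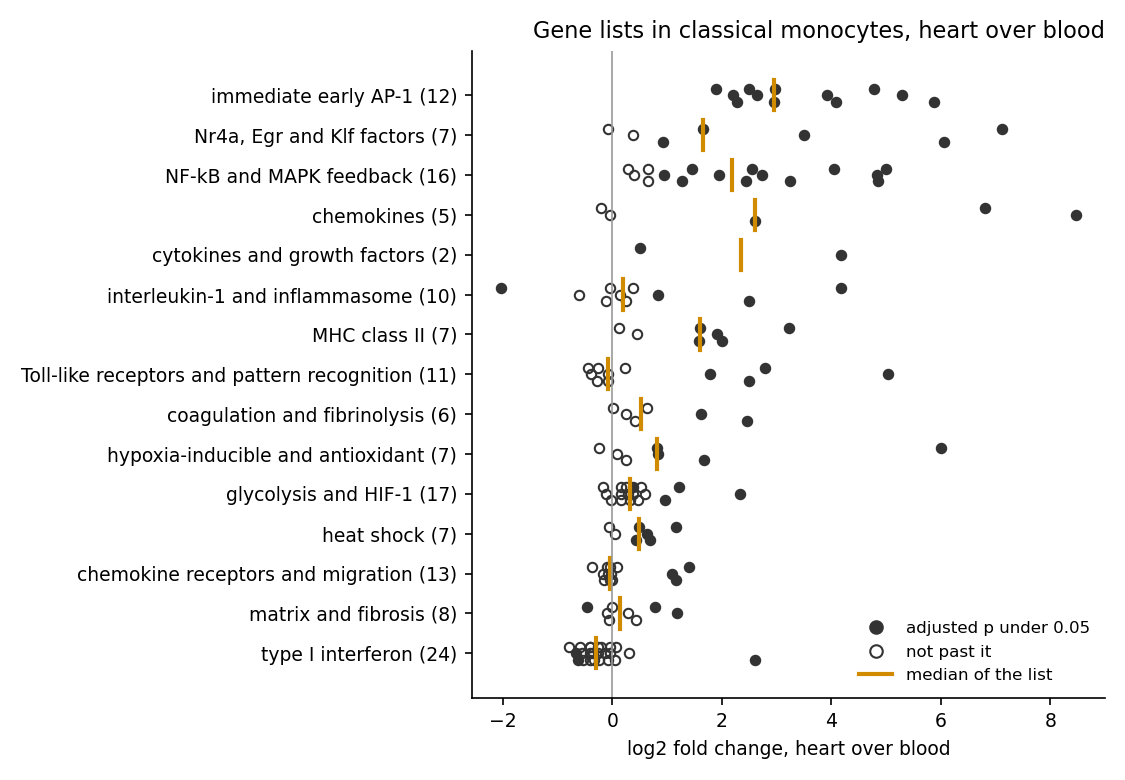
Log2 fold change of heart over blood in classical monocytes for the tested genes of 15 lists (number tested in brackets), gate genes and label markers left out, each dot a gene, filled where edgeR's adjusted p was under 0.05, with the median of a list as a bar. All 12 AP-1 genes are filled and to the right, and most of the 24 type I interferon genes lie left of 0. The positions of Nr4a3, which had a single UMI in blood, and of Ccl3, which had few, depend on the small count that edgeR adds.

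Of 13 heat shock genes 7 were tested and 5 rose, with Hsp90aa1 at 359 ± 87.6 CPM in heart and 158 ± 11.3 CPM in blood (log2 fold change 1.16, SE 0.17, adjusted p = 4.6e-06) and a median of 0.49. Of 24 glycolysis and HIF-1 genes 17 were tested and 4 rose, led by the glucose transporter Slc2a1 (log2 fold change 2.34, SE 0.37, adjusted p = 2.5e-05). The calls of the other 3, Pfkp, Slc16a3 and Gapdh, were each lost without at least 3 of the 4 mice in turn. In the migration list, without the gate gene Ccr2, 13 of 19 genes were tested and 3 rose, the adhesion receptor Cd44 (1.41), Icam1 (1.17) and the chemokine receptor Ccr1 (1.10), while the integrins Itga4, Itgal, Itgam and Itgb2 did not pass. Icam1 was not called without control 2 (adjusted p = 0.0654), nor Ccr1 without stroke 1 (0.287). Type I interferon genes did not rise as a list: of 24 tested genes 20 had negative values, the median was −0.30, 2 fell, among them Ifi209 (−0.62), and 1, Cxcl10, rose. Ifi209 did not pass without control 1 (adjusted p = 0.0532) or without stroke 2 (0.172). Of the matrix genes, 8 of 18 were tested, Vim (0.77) and Ctsl (1.18) rose and Fn1, fibronectin, fell (log2 fold change −0.46, SE 0.13, adjusted p = 0.0155), the last with adjusted p = 0.0579 without control 1 and 0.211 without control 2. Ctsl did not pass without stroke 1 or stroke 2 (0.0568 and 0.0587). Of 26 lipid genes 7 were tested and 1 was called, a share not far from that over all genes, and 2 of 20 cell cycle genes were tested, too few to describe the list.

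Genes lower in heart differed by less. After Txnip the named genes that fell most were the cadherin gene Cdh23, the linker histone gene Hist1h1c (−1.91, adjusted p = 0.11 without stroke 2) and the lectin-like gene Clec2g. Hist1h1e, another linker histone, was at 112, 46.2, 85.4 and 37.0 CPM in heart and 193, 187, 268 and 214 CPM in blood (log2 fold change −1.72, SE 0.25, adjusted p = 7.4e-06). Clec2g had 1, 7, 3 and 1 UMIs in heart and 85, 12, 60 and 41 in blood (log2 fold change −1.77, SE 0.42, adjusted p = 0.00371). Cdh23 was at 0 UMIs in heart in stroke 1 and control 1 and at 7 and 3 in stroke 2 and control 2, against 64, 8, 54 and 58 UMIs in blood (log2 fold change −1.96, SE 0.48, adjusted p = 0.00538).

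A comparison added after the data had been seen asked whether heart and blood differed by the same amount in classical as in nonclassical monocytes of the same mice. Nonclassical monocytes were gated by at least 2 UMIs of Treml4, Ace and Cd300e and at most 1 of Ly6c2, with the other exclusions unchanged, and gave 650 cells in heart and 491 in blood. Of the 308 genes higher in heart in classical monocytes, 295 were also higher there in nonclassical monocytes, and of the 91 lower genes 88 were lower, against 3064 higher and 3378 lower of all 6442 genes tested. Both classes came from the same 4 libraries. The difference of the differences passed edgeR's test for 39 genes (0.605%) in which heart exceeded blood by more in classical monocytes and for 6 (0.0931%) in which it exceeded it by less.

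Jun was at 948 ± 127 CPM in heart and 14.6 ± 6.72 CPM in blood in classical monocytes and at 908 ± 131 CPM in heart and 53.1 ± 8.23 CPM in blood in nonclassical ones (SD, n = 4 mice; difference 1.70, SE 0.26, adjusted p = 1.6e-04). Nr4a1 was at 476 ± 46.9 CPM in heart and 40.1 ± 11.7 CPM in blood in classical monocytes and at 1079 ± 172 CPM in heart and 267 ± 61.2 CPM in blood in nonclassical ones (difference 1.46, SE 0.20, adjusted p = 2.9e-05). The blood level was lower in classical than in nonclassical monocytes for both genes. Socs3, a feedback inhibitor of cytokine signalling (difference 1.80, SE 0.30, adjusted p = 6.3e-04), Dusp16, a MAP kinase phosphatase (difference 2.05, SE 0.28, adjusted p = 3.1e-05), and Trib1, a pseudokinase (difference 2.09, SE 0.35, adjusted p = 8.3e-04), also rose more in classical monocytes. Cd74 had log2 fold changes of 1.65 in classical and 0.18 in nonclassical monocytes (difference 1.47, SE 0.26, adjusted p = 0.0011).

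Id2, an inhibitor of helix-loop-helix factors, had log2 fold changes of −0.18 in classical and 1.80 in nonclassical monocytes (difference −1.98, SE 0.36, adjusted p = 0.0011), and Gsn, the actin-severing gelsolin, of −0.06 in classical and 2.46 in nonclassical monocytes (difference −2.52, SE 0.44, adjusted p = 0.00101). For these 2 genes the classical monocytes showed a difference near 0 and the nonclassical ones were higher in heart. Fos (difference −0.65, SE 0.22, adjusted p = 0.257), Cxcl2 (difference 1.13, SE 0.71, adjusted p = 0.781) and Il1b (difference 0.51, SE 0.37, adjusted p = 0.862) did not pass, which does not show that they moved alike. The count of 45 genes was 14 without stroke 1, 33 without stroke 2, 52 without control 1 and 7 without control 2, and DESeq2 called 18. Cd74 did not pass without stroke 1 or control 2 (adjusted p = 0.158 and 0.0531), nor Socs3 without stroke 1 (0.0961) or Gsn without control 2 (0.12). Id2 did not pass without stroke 2 or control 2 (0.117 and 0.0564).

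**Figure D4:**
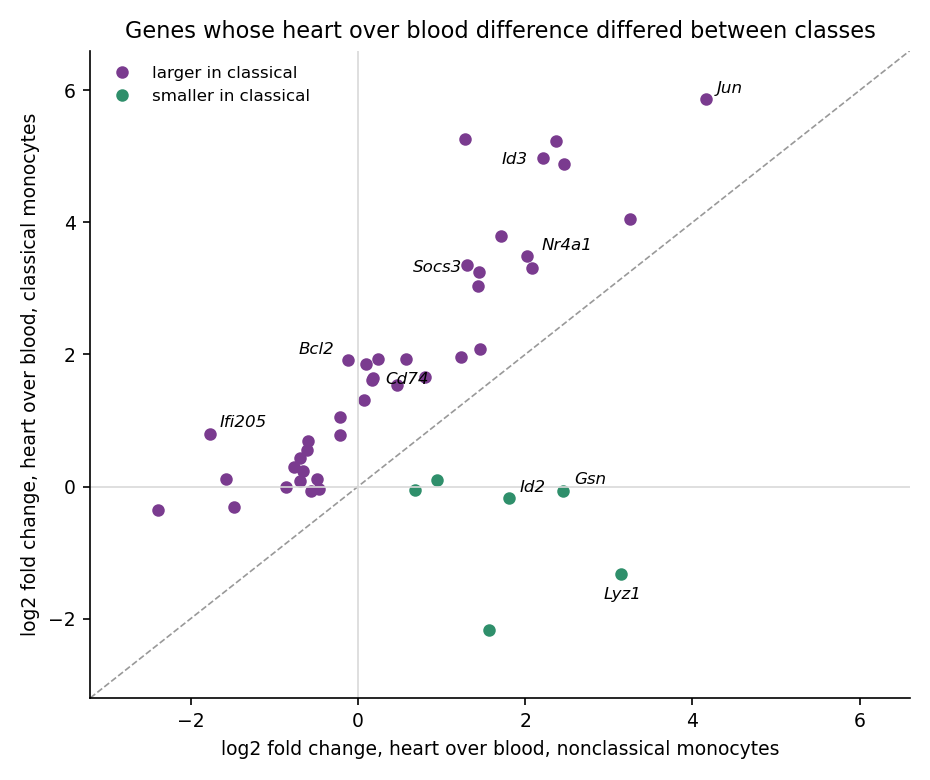
Log2 fold change of heart over blood in classical (vertical axis) against nonclassical monocytes (horizontal axis) for the 45 genes whose difference passed edgeR's test, with equality as a dashed line. The 39 purple genes lie above the line and the 6 green genes below it, and being above or below is what the test selected. Lyz1 has a near-identical copy in Lyz2, so its count is uncertain.

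The comparison of the study itself, stroke against control marrow, called no gene in heart classical monocytes. Of 3053 genes tested, edgeR called 0 (0%) and had 147 with an unadjusted p under 0.05. DESeq2 likewise called 0 and had 21 under 0.05. The values of the stroke mice were both higher than those of the control mice in 526 genes (17.2%) and both lower in 544 (17.8%). Leaving out stroke 1, stroke 2, control 1 or control 2 gave 8, 5, 10 and 0 calls. The genes named below therefore have values and directions but no call in the main fit, which is meant below unless another setting is named. Of 23 genes named for this comparison, 7 gained a call with no low-count filter. With the top barcode of each gene left out, 1 did.

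The smallest p-value belonged to an MHC class II gene, and the other tested genes of that list had the same sign. H2-Eb1, a chain of the class II molecule, was at 248 and 33.7 CPM with stroke marrow and 862 and 683 CPM with control marrow (log2 fold change −2.71, SE 0.53, adjusted p = 0.586). Cd74 was at 2537 and 662 CPM with stroke marrow and 4878 and 3143 CPM with control marrow (log2 fold change −1.36, SE 0.45, adjusted p = 0.929). H2-Ab1 was at 803 and 88.5 CPM with stroke marrow and 1359 and 921 CPM with control marrow (log2 fold change −1.48, SE 0.62, adjusted p = 0.929). The groups did not overlap, and stroke 2 was the lowest mouse in each. All 7 tested genes of the list had negative values, and the median was −1.36 against −0.00 over all genes. In 6 of them both stroke mice lay below both controls, beside 17.8% of all genes. Most UMIs of Cd74 and the H2 genes lay in few cells, so the values of these genes are not independent. H2-Eb1 passed without stroke 1, stroke 2 or control 1 (log2 fold change −4.47, −1.63 and −2.58, adjusted p = 7.0e-06, 0.0419 and 1.8e-12) and not without control 2 (−2.92, adjusted p = 0.69). Cd74 and H2-Ab1 passed without stroke 1 (−2.59 and −3.66, adjusted p = 2.2e-04 and 2.1e-05) and without control 1 (−1.02 and −1.23, adjusted p = 4.6e-04 and 0.00438).

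Few cells carried these transcripts. A single barcode held 13 of 29 and 6 of 8 H2-Eb1 UMIs with stroke marrow and 42 of 71 and 59 of 129 with control marrow. After thinning, H2-Eb1 was seen in 5 of 21 and 1 of 43 cells with stroke marrow and in 5 of 15 and 5 of 39 with control marrow, while nearly all heart B cells had it. With the top barcode of each gene left out, its log2 fold change was −2.77 (adjusted p = 0.0431). Markers of dendritic cells, which carry class II, made up 0.00187% to 0.00371% of UMIs with stroke marrow and 0.00275% to 0.0154% with control marrow, with Zbtb46, Xcr1 and Clec9a at 0 beside Cd209a and Flt3, which the gate set to 0, and B cell markers 0.0112% to 0.0134% with stroke marrow and 0.0123% to 0.0179% with control marrow. Their part in the result was not tested.

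Other genes with small p-values lay in both directions. Slpi, a secreted protease inhibitor, was at 402 and 573 CPM with stroke marrow and 206 and 212 CPM with control marrow (log2 fold change 1.24, SE 0.28, adjusted p = 0.586). Slc7a11 was at 248 and 337 CPM with stroke marrow and 72.8 and 132 CPM with control marrow (log2 fold change 1.42, SE 0.34, adjusted p = 0.68). Stxbp6, which binds the SNARE machinery of secretion, was at 469.9 and 531 CPM with stroke marrow and 291 and 286 CPM with control marrow (log2 fold change 0.81, SE 0.25, adjusted p = 0.929). These 3 genes were higher in both stroke mice. Cxcl10 was at 68.3 and 135 CPM with stroke marrow and 255 and 280.4 CPM with control marrow (log2 fold change −1.30, SE 0.34, adjusted p = 0.929). Maf, a macrophage transcription factor, was at 17.1 and 33.7 CPM with stroke marrow and 72.8 and 127 CPM with control marrow (log2 fold change −1.92, SE 0.53, adjusted p = 0.929). After the filter the heart sums held 85252 to 230682 UMIs, so the levels of Maf rest on few UMIs. A single barcode held 5 of 8 and 12 of 32 Cxcl10 UMIs with stroke marrow and 11 of 21 and 22 of 53 with control marrow.

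**Figure D5:**
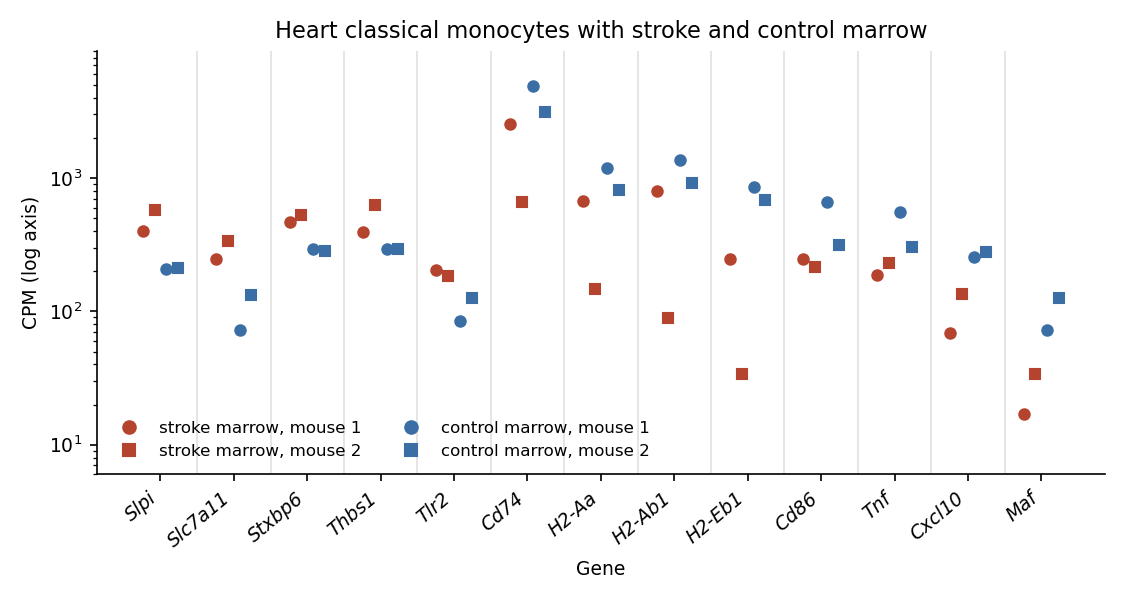
Level of 13 genes in heart classical monocytes in CPM on a log axis, with the 2 stroke marrow mice (red) left of the 2 control marrow mice (blue). The MHC class II genes lie lower and Slpi, Slc7a11 and Stxbp6 higher with stroke marrow, and none of the 13 passed edgeR's test over all genes in the main fit.

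Inflammatory genes that were higher in heart than in blood had no call between the donor groups. Il1b was at 555 and 1500.3 CPM with stroke marrow and 1541 and 1090.0 CPM with control marrow (log2 fold change −0.30, SE 0.36, adjusted p = 0.948). Nlrp3 was at 342 and 400.4 CPM with stroke marrow and 303 and 243 CPM with control marrow (log2 fold change 0.49, SE 0.26, adjusted p = 0.929). Tnf was at 188 and 232 CPM with stroke marrow and 558 and 302 CPM with control marrow (log2 fold change −0.92, SE 0.32, adjusted p = 0.929). The groups overlapped for Il1b, whereas Nlrp3 was higher and Tnf lower in both stroke mice. Cxcl2 was at 1235 ± 297 CPM with stroke marrow and 1737 ± 496 CPM with control marrow (SD, n = 2 each; log2 fold change −0.46, SE 0.25, adjusted p = 0.929) and its value was 0.39 with the top barcode left out. Il6 was at 59.8 and 148 CPM with stroke marrow and 12.1 and 89.9 CPM with control marrow, and its level in control 1 rests on few UMIs. Fos was at 4049 and 4016 CPM with stroke marrow and 3312 and 3661 CPM with control marrow.

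Fn1 and Tlr2 had higher means with stroke marrow, again without a call. Ccr2 is a gate gene and Thbs1 and F10 are label markers, so their values are only described. Ccr2 was at 993 ± 117 CPM with stroke marrow and 1076 ± 79.9 CPM with control marrow and Fn1 at 1115 ± 103 CPM with stroke marrow and 897 ± 139 CPM with control marrow (SD, n = 2 mice each). Thbs1 was at 393 and 632 CPM with stroke marrow and 291 and 291 CPM with control marrow, and F10 at 478 and 539 CPM with stroke marrow and 413 and 376 CPM with control marrow. Tlr2, a receptor for bacterial lipoproteins, was at 205 and 185 CPM with stroke marrow and 84.9 and 127 CPM with control marrow (log2 fold change 0.78, SE 0.34, adjusted p = 0.929). Of 10 tested pattern recognition genes 9 had positive values and 5 had both stroke mice above both controls, beside 17.2% of all genes. Of the 13 classical monocyte markers that are neither gate genes nor the label markers, 11 were positive and 4 lay above both controls, with a median of 0.13. The AP-1 list had a median of 0.03 and the type I interferon list of −0.20, and neither had a call.

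Whether the donor difference itself differed between heart and blood was tested as an interaction over 8 sums. Of 4492 genes, edgeR called 2 (0.0445%), Ccl5 and Crip1, and had 176 with an unadjusted p under 0.05. DESeq2 called 0 and had 13 under 0.05. Ccl5, a chemokine of T and NK cells, had 0 and 0 heart UMIs with stroke marrow, against 0 and 78 with control marrow, and all 78 came from 1 barcode. The T cell genes Cd3d, Cd3e and Cd3g had 3, 4 and 4 UMIs in the same sum, each in 1 barcode. Crip1, a small LIM-domain protein, was at 2702 and 3657 CPM in heart with stroke marrow and 5117 and 4135 CPM with control marrow. In blood it was at 3074 and 4014 CPM with stroke marrow and 2602 and 3417 CPM with control marrow. Without control 1 its interaction was −0.43 (adjusted p = 0.75), against −0.78 (adjusted p = 0.0386) with all mice.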

How the data were processed

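The authors deposited UMI counts per gene or hashtag and barcode, made with Cell Ranger 7.1.0 on mm10 per the submitters' processing notes, with no normalization. The filtered barcodes were used as deposited. The cells, markers and gene lists were chosen with earlier results of these data known. UMI counts of the gated cells were summed per mouse and organ and tested with edgeR 4.0.16 in R 4.3.3 (quasi-likelihood, TMM, filterByExpr, Benjamini-Hochberg threshold 0.05), checked on simulated counts. Heart against blood had the mouse as a block, since a library holds both organs of a mouse. SEs were derived from the F statistic. CPM are counts over the scaled total of a sum after the filter. Fits were run separately per comparison, so CPM of a gene differ slightly between them. Replicate numbers did not pair mice across donor groups (r = 0.07 of deviations over 3039 genes). Named genes were the markers, the 12 largest changes in each direction at a mean of at least 50 CPM, the top members of each list and the 10 smallest p-values of stroke against control. Genes named outside it, in the class comparison and as list members that did not pass, were chosen after their values were seen. Doublet scores came from Scrublet in scanpy 1.11.5 and did not exclude cells. Shares were tested by exact permutation. Alternatives were DESeq2 1.42.0, other scaling, no filter, other gates and leaving out each mouse. Coordinates are from GENCODE vM21 (GRCm38) and promoters from RefSeq. Some genes that the rule names are not reported here.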

Additional observations from a re-analysis of the deposited data

Results flagged for a closer look

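The donor difference of 2 genes differed between heart and blood by edgeR's interaction test over 8 sums. For Ccl5 the log2 difference of differences was −14.49 (adjusted p = 5.3e-07), with heart UMIs of 0 and 0 with stroke marrow, against 0 and 78 with control marrow. Blood UMIs were 5 and 39 with stroke marrow, against 5 and 3 with control marrow. All 78 UMIs lay in 1 barcode of control 2. Nkg7 of NK and cytotoxic T cells had 10 UMIs and the T cell genes Cd3d, Cd3e and Cd3g 3, 4 and 4 UMIs in the same sum, each in 1 barcode. The gate excludes cells with Gzma or Ncr1. Without stroke 2 the value was −9.32 (adjusted p = 0.571), and without control 2 it was −4.44 (adjusted p = 1.0). As heart was at 0 in 3 mice, the size of these values depends on the small count that edgeR adds. For Crip1 the value was −0.7755 (adjusted p = 0.0386), and it did not pass without stroke 2 (−0.78, adjusted p = 0.0527) or control 1 (−0.43, adjusted p = 0.75). DESeq2 called neither.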

How the results depend on the processing

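The count of 399 genes between heart and blood stayed within 1.5 times under all alternatives but DESeq2 (226) and a gate of at least 4 Ly6c2 UMIs (232). It ranged from 278 to 366 with a mouse left out and was 383 with no replicate block. The genes themselves changed more. Of the 399, 293, 243, 330 and 295 were called again without stroke 1, stroke 2, control 1 and control 2, and 341 with no low-count filter. Without stroke 2, 28 genes were lower in heart, against 91. The stroke against control count of 0 became 23 with no low-count filter and 3 with the top barcode of each gene left out, ranged from 0 to 10 with a mouse left out, and was 0 with the replicate block, although mice share only a number. The interaction count of 2 was 1 with DESeq2 size factors, with 95% hashtag purity, without Scrublet calls and without the top 5% of UMIs, 0 with DESeq2 and at 4 Ly6c2 UMIs, 4 with no filter, and 2 to 16 with a mouse left out. The class count of 45 was 18 with DESeq2 and 7 to 52 with a mouse left out. Between stroke and control, Il1b ranged from −1.24 without stroke 2 to 0.21 without stroke 1, and Cxcl2 turned to 0.39 without its top barcode. The gate gene Ccr2, described only, turned to 0.010 at 4 Ly6c2 UMIs. Between heart and blood, the gate gene Chil3 ranged from −0.44 without stroke 2 to 0.053 without control 1. The class difference of the label marker Nr4a2 ranged from −0.30 without stroke 1 to 1.14 without control 2. Both are described only. The cause was not tested. For 68 genes named between heart and blood, 858 repeats kept the direction and the call, or the lack of one. Another 71 lost the call and 1, of the gate gene Chil3, changed direction. For 23 genes named between stroke and control, 17 repeats gained a call and 3 changed direction. Gate genes such as Chil3 and Ccr2 are in these tallies, and their repeats describe the choice of cells and lend no support. The 15 cells of control 1 limit what could be seen.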
